A study of Mus musculus with 6 samples.

Results

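The genes described here form the machinery that copies DNA in S phase. They were chosen by name, with earlier results of these data known. The list holds 47 genes of origin licensing, the replicative helicase, polymerases, clamp loading, Okazaki fragment processing, nucleotide supply, replication-coupled chromatin and the G1/S switch. All 47 were measured, among 23279 genes tested. The values come from whole fetal livers of mouse embryos at embryonic day 11.5, hybridised to 6 Affymetrix arrays: 3 livers labelled knockout, whose titles name the Stab2-Cre transgene and a Gata4 knockout, and 3 control livers, whose titles name the same transgene and heterozygous Gata4. By these titles both groups carry Cre, and the controls are heterozygous rather than wild type. In the breeding described in the labels, Stab2-Cre tg/wt;Gata4 fl/wt mice were mated with Gata4 fl/fl mice, and the floxed allele came from the line B6;129-Gata4tm1.1Sad/J. Stab2 encodes a scavenger receptor of liver sinusoidal endothelium, so the deletion is aimed at 1 cell type of the organ, while the RNA is that of all its cells. The replicates are labelled biological, and neither the number of embryos per array nor their litters are stated.

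Before S phase the origin recognition complex, CDC6 and CDT1 load the MCM hexamer onto DNA, and geminin restrains CDT1 so that origins are not loaded again. CDC45 and the GINS complex then turn the loaded hexamer into a moving helicase, polymerase alpha with primase starts each strand, polymerases epsilon and delta extend it on the PCNA ring, and FEN1 and DNA ligase I join the lagging strand. Most of these genes are known targets of E2F transcription factors, which cyclin E activity releases from RB family proteins. The fetal liver of this stage is the main site of definitive red cell formation, and its erythroid progenitors are among the fastest dividing cells of the embryo.

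Some facts of the series touch every value below. The Gata4 feature read 10.38, 10.26 and 10.64 in the livers labelled knockout, against 9.90, 9.96 and 9.87 in control livers (log2 expression value). It was thus higher and not lower where a loss is labelled (log2 fold change 0.51, SE 0.12, limma adjusted p = 0.0409). Where this feature's probes lie relative to the deleted part is not given, and other liver cells express Gata4, so it does not check the labels, and all directions rest on them. Embryo sex was not balanced, since the female transcript Xist read 10.2 to 10.7 on all arrays except those of controls 1 and 3, which read 3.58 and 3.96. The deposited values were quantile-normalised and are relative within each array. In bulk tissue, fewer cells of a type and less RNA per cell cannot be told apart.

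Replication genes were lower in the livers labelled knockout by a small and widely shared amount. Of the 47 genes, 46 had a negative log2 fold change (labelled knockout minus control) and Mcm7 had one of 0.00, against 51.7% negative among all genes tested. The median was −0.25, with the middle of the list between −0.41 and −0.17, beside −0.01 for all genes. Past an adjusted p of 0.05 (limma on all genes, Benjamini-Hochberg), 7 genes fell and 0 rose. In the same test 2.77% of all genes were lower and 3.59% were higher. The 7 were the flap endonuclease gene Fen1, the origin recognition subunit gene Orc2, the helicase factor gene Cdc45, the RPA subunit genes Rpa3 and Rpa2, the transcription factor gene E2f1 and the polymerase epsilon subunit gene Pole2. Counted at an unadjusted p under 0.05, 28 genes were lower and 0 higher, where 11.5% of all genes were lower. All 3 livers labelled knockout read below all 3 control livers for 33 genes, as was so for 14.3% of all genes, and the order was the opposite for 0 of the 47. The shift was small per gene: the largest was 1.72-fold (Fen1), and only that gene differed by at least 1.5-fold among those past the test.

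**Figure D1:**
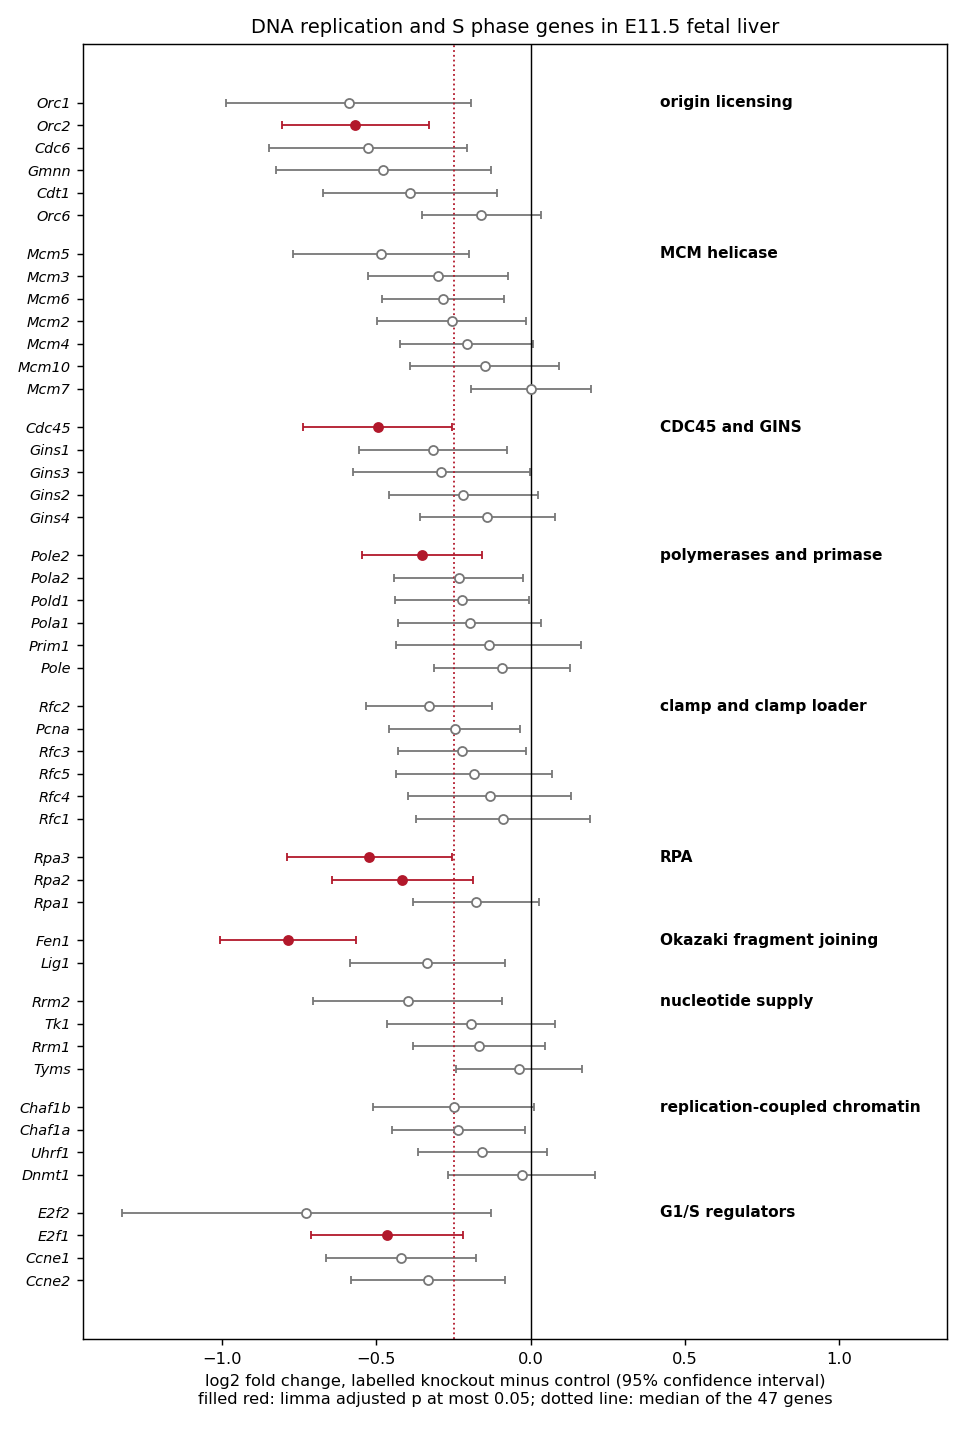
Log2 fold change (labelled knockout minus control) of each of the 47 genes with its 95% confidence interval from limma, grouped by role. Filled red points are the 7 genes past an adjusted p of 0.05, open grey points the other 40, and the dotted line is the median of −0.25. Mcm7 sits at 0.00, and every other point lies left of 0.

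**Figure D2:**
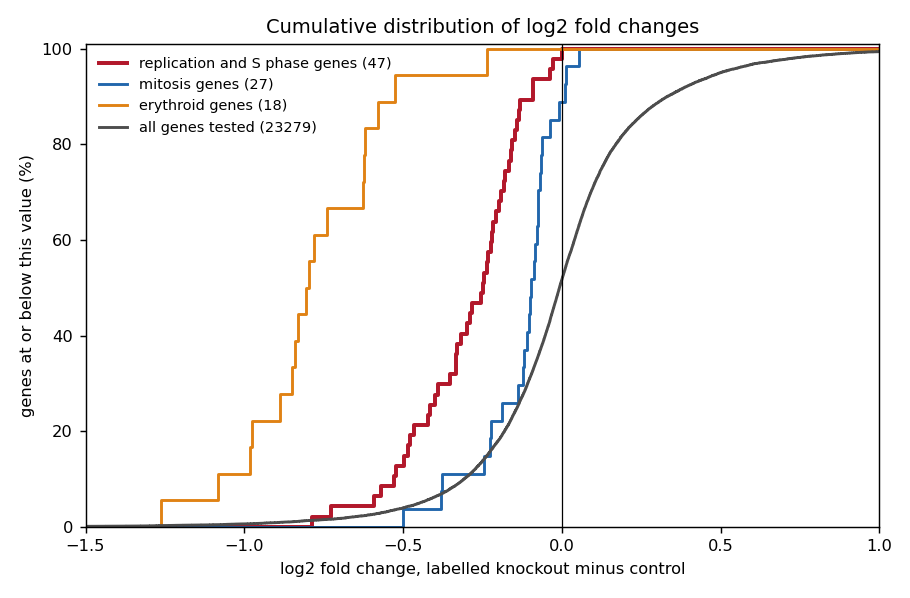
Cumulative share of genes (%) against log2 fold change (labelled knockout minus control) for the 47 replication and S phase genes, 27 mitosis genes, 18 erythroid genes and all 23279 genes tested. The curve of the replication genes lies between that of the erythroid genes (median −0.80) and that of the mitosis genes (median −0.10), and all genes centre on −0.01.

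The number of genes past the test depended on single arrays, and the sign of the list's median did not. Without labelled knockout replicate 1, 4 genes were lower (2.62% of all genes were lower in that fit). Without replicate 2 it was 2 (1.29%), and without replicate 3 it was 1 (0.374%). Without control replicate 1 it was 2 (1.1%), without control replicate 2 also 2 (0.666%), and without control replicate 3 it was 0 (0.0687%). In that last limma fit 15 were lower at an unadjusted p under 0.05, against 28 with all arrays. The share of all genes lower at that unadjusted p was not counted there, so the 15 has no background. The share of all genes called was below 2.77% in each of these 6 fits too. With a variance trend 12 genes were lower (3.51% of all genes), and among the brighter 50% of genes 11 were (8.16%). At an adjusted p of 0.1, 13 were lower (5.46%), and with a fold change of at least 1.5 the count was 1 (1.69%). Over the 6 fits without 1 array the median of the list stayed between −0.31 and −0.21, and 45 to 47 of the genes were negative. Fen1 passed in 5 of those 6 fits, Orc2 in 3, Cdc45 and Rpa3 in 1 each, and E2f1, Pole2 and Rpa2 in 0. A term for embryo sex, set from Xist and Uty, leaves control replicate 2 as the only control of the same sex as the livers labelled knockout. With it 0 genes of the list passed at an adjusted p of 0.05 (limma), 11 were lower and 0 higher at an unadjusted p under 0.05, 45 were negative, and the median was −0.27. Over all genes tested that fit called 0 lower (0%) and 3 higher, with 1619 lower and 1640 higher at an unadjusted p under 0.05.

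Arrays within a group also differed. Relative to the control mean of each gene, the list's median was −0.27, −0.27 and −0.29 in labelled knockout replicates 1, 2 and 3, against −0.10, 0.01 and 0.08 in control replicates 1, 2 and 3. The 3 livers labelled knockout were therefore close to each other, and the controls were spread more widely. Of the 47 genes, 46, 41 and 47 read below the control mean in labelled knockout replicates 1, 2 and 3. The same count was 40, 19 and 4 in control replicates 1, 2 and 3. A single control liver thus had nearly as many genes below that mean as labelled knockout replicate 2. Control replicate 1 was the lowest of the controls for 36 of the 47 genes, where it was so for 31.6% of all genes, and control replicate 3 was the highest for 33, where it was so for 32.7%. Those are the 2 controls with low Xist, and control replicate 2 lay between them.

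The promoters of these genes, most of which did not pass the test, were searched for 3 kinds of short word, as a description of their sequence. The windows were RefSeq promoters of GRCm38.p6, 250 bases before and 50 after a start site, and 39 of the 47 genes had at least 1 window. Gins1, Gins2, Gins4, Ccne2, Mcm4, Rfc2, Gmnn and Pole had none in that table. The E2F consensus (TTTCCCGC, TTTCGCGC, TTTGCCGC or TTTGGCGC, on either strand) was in a window of 16 of the 39 genes (41.0%), against 2.60% of the 27025 genes in the table and 38.9% of 18 other G1/S regulators. The CCAAT box (CCAAT on either strand) was in 25 of the 39 (64.1%, against 41.1% of all genes and 77.3% of 22 mitosis genes). The CHR word of late cell cycle genes (TTTGAA on either strand) was in 6 (15.4%, against 20.2%), while 16 of those 22 mitosis genes held it. Of the 7 genes that passed the test, 1 held the E2F word, Pole2, and the median log2 fold change was −0.29 over the 16 genes with it and −0.23 over the 23 without. A matching word is a description of the window and not evidence of binding.

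Upstream stretches of 6 genes show both kinds. Each runs 5′ to 3′ on the gene's strand, lies upstream of the annotated gene and carries its matching words in capitals. Mcm6 (chr1:128359706-128359875, minus strand), Mcm5 (chr8:75109339-75109467, plus strand) and Gins3 (chr8:95633389-95633558, plus strand) hold the E2F word. In Mcm6 and Mcm5 a pair of E2F words overlaps on opposite strands.
Mcm6: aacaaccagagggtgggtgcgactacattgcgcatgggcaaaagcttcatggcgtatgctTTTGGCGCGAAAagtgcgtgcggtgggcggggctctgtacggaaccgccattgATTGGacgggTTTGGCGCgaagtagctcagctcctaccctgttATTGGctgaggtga
Mcm5: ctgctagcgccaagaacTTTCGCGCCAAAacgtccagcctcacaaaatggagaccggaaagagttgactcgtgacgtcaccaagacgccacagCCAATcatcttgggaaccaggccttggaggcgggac
Gins3: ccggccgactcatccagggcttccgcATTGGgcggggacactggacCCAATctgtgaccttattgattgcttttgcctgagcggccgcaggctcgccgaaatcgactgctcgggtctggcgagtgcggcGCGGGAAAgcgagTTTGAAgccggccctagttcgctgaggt
Fen1 (chr19:10204394-10204563, minus strand), Cdc45 (chr16:18811973-18812142, minus strand) and Rpa2 (chr4:132768190-132768359, plus strand) passed the test and hold no E2F word in their windows. The capitals mark a CHR word in Fen1 and CCAAT boxes in Cdc45 and Rpa2.
Fen1: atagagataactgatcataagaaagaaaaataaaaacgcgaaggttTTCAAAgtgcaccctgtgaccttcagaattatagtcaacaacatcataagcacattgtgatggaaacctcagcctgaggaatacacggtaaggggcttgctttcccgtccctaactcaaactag
Cdc45: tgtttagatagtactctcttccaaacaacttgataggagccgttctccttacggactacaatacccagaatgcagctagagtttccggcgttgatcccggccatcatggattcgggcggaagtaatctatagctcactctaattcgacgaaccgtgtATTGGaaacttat
Rpa2: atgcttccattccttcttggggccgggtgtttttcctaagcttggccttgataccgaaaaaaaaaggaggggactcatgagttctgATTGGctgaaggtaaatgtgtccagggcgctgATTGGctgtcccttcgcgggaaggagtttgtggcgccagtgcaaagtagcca

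**Figure D3:**
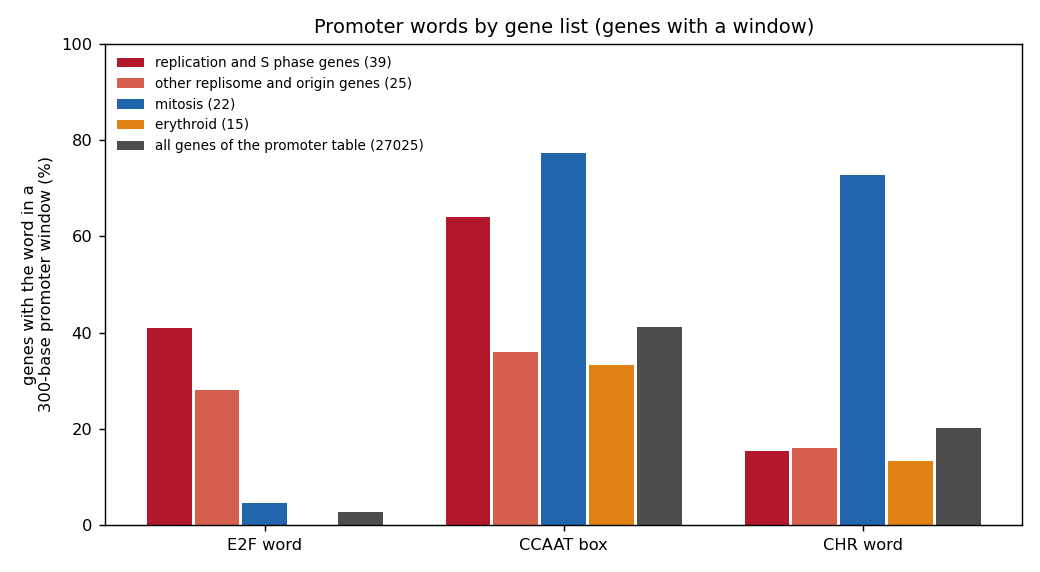
Share of genes (%) with the E2F word, the CCAAT box or the CHR word in a 300-base RefSeq promoter window, for 39 replication and S phase genes, 25 other replisome and origin genes, 22 mitosis genes, 15 erythroid genes and all 27025 genes of the table. The E2F word reaches 41.0% in the replication genes and 28% in the other replisome genes, while the CHR word is most frequent in the mitosis genes at 72.7%.

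Origin licensing genes had the lowest median of the role groups with more than 2 genes, at −0.50, and all 6 read lower in every liver labelled knockout than in any control. Orc2, a core subunit of the origin recognition complex, fell 1.48-fold. It read 9.25, 9.23 and 9.19 in the livers labelled knockout, against 9.64, 9.79 and 9.95 in control livers (log2 fold change −0.57, SE 0.10, limma adjusted p = 0.0254). Its values lay close together in the livers labelled knockout and further apart in the controls. Orc1, the ATPase subunit made in late G1, read 6.89, 6.60 and 6.92 in the livers labelled knockout, against 7.04, 7.44 and 7.70 in control livers, and did not pass (−0.59, SE 0.17, adjusted p = 0.0849). Cdc6, the loading ATPase, read 9.998, 9.86 and 9.69 in the livers labelled knockout, against 10.16, 10.35 and 10.62 in control livers (−0.53, SE 0.14, adjusted p = 0.0643). For both, the gap between the groups was small beside the spread of the controls. The loader Cdt1 (−0.39, adjusted p = 0.104) and its inhibitor geminin, Gmnn (−0.48, adjusted p = 0.108), had log2 fold changes of similar size. Orc6, which joins the complex loosely in mammals, had the smallest difference of the group (−0.16, adjusted p = 0.318).

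The MCM genes had log2 fold changes from −0.48 to 0.00, and 0 of 7 passed limma's test, with 4 lower at an unadjusted p under 0.05. Mcm5 had the largest difference, with 11.02, 10.80 and 10.70 in the livers labelled knockout, against 11.16, 11.35 and 11.47 in control livers (log2 fold change −0.48, 95% confidence interval −0.77 to −0.20, adjusted p = 0.0589). Mcm6 read 10.90, 10.93 and 10.85 in the livers labelled knockout, against 11.12, 11.19 and 11.22 in control livers (−0.28, adjusted p = 0.0960). Neither pair of groups overlapped. Mcm3 (−0.30, adjusted p = 0.117), Mcm2 (−0.26, adjusted p = 0.196) and Mcm4 (−0.21, adjusted p = 0.243) also read lower in every liver labelled knockout. Mcm7 was the exception. It read 11.61, 11.65 and 11.57 in the livers labelled knockout, against 11.60, 11.59 and 11.65 in control livers, a log2 fold change of 0.00 with a 95% confidence interval of −0.19 to 0.19, and it holds the E2F word as Mcm3, Mcm5 and Mcm6 do. Whether Mcm7, or any other subunit, differs from the rest was not tested. Mcm10, an initiation factor outside the hexamer, had −0.15 (adjusted p = 0.472) and overlapping groups.

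Of the 5 genes that complete the active helicase, Cdc45 fell. It read 8.27, 8.16 and 7.98 in the livers labelled knockout, against 8.55, 8.67 and 8.69 in control livers, which is 1.41-fold lower (−0.50, SE 0.11, limma adjusted p = 0.0355). Here the livers labelled knockout were the more spread group, and the groups stayed apart. Among the GINS subunits Gins1 had the smallest p, with 8.25, 8.32 and 8.26 in the livers labelled knockout and 8.43, 8.62 and 8.73 in control livers (−0.32, adjusted p = 0.118). Gins3 (−0.29), Gins2 (−0.22) and Gins4 (−0.14) had adjusted p-values of 0.218 to 0.455. The median of this role group was −0.29, and −0.19 with the sex term.

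The 6 polymerase and primase genes had a median of −0.21. Pole2, the second subunit of the leading-strand polymerase epsilon, fell 1.28-fold. It read 8.73, 8.72 and 8.71 in the livers labelled knockout, against 9.02, 9.07 and 9.12 in control livers (−0.35, SE 0.08, limma adjusted p = 0.0486). The spread was small in both groups, and the groups were apart. Pola2, a subunit of polymerase alpha, read 10.38, 10.36 and 10.39 in the livers labelled knockout, against 10.53, 10.59 and 10.71 in control livers (−0.23, adjusted p = 0.173). The catalytic subunit genes Pold1 (−0.22), Pola1 (−0.20, X-linked) and Pole (−0.09) and the primase gene Prim1 (−0.14) had adjusted p-values of 0.214 to 0.658, and the groups overlapped for Pole and Prim1.

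The clamp and its loader had a median of −0.20, and 0 of 6 genes passed limma's test, with 3 lower at an unadjusted p under 0.05. Pcna, the sliding clamp, read 12.75, 12.69 and 12.69 in the livers labelled knockout, against 12.84, 12.99 and 13.03 in control livers (−0.25, 95% confidence interval −0.46 to −0.03, adjusted p = 0.162). Rfc2, a loader subunit, read 8.67, 8.79 and 8.77 in the livers labelled knockout, against 9.08, 9.01 and 9.13 in control livers (−0.33, adjusted p = 0.0688). The groups were separate for both, as for Rfc3 (−0.22). The remaining loader subunits Rfc5 (−0.18), Rfc4 (−0.13) and the large subunit Rfc1 (−0.09) had overlapping groups.

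RPA, the trimer that coats single-stranded DNA, had 2 of its 3 genes past the test. Rpa3 fell 1.44-fold, with 7.68, 7.65 and 7.75 in the livers labelled knockout, against 8.39, 8.0 and 8.26 in control livers (−0.52, SE 0.12, limma adjusted p = 0.0404). Rpa2 fell 1.33-fold, with 9.21, 9.26 and 9.20 in the livers labelled knockout, against 9.48, 9.74 and 9.69 in control livers (−0.42, SE 0.10, limma adjusted p = 0.0492). The livers labelled knockout were tight in both genes, and in Rpa3 the lowest control was replicate 2, unlike in most of the list. With the sex term the Rpa3 difference was −0.31 and that of Rpa2 −0.52. The large DNA-binding subunit gene Rpa1 had −0.18 (adjusted p = 0.290), also with separate groups.

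Fen1, whose nuclease removes the flaps between Okazaki fragments, had the largest difference of the list. It read 9.13, 9.06 and 9.05 in the livers labelled knockout, against 9.75, 9.87 and 9.98 in control livers (log2 fold change −0.79, 95% confidence interval −1.01 to −0.57, limma adjusted p = 0.0103). The gap between the nearest arrays of the groups was 0.62, wider than either group's own range. Its adjusted p was 0.0536 without control replicate 3 and 0.0425 or less in the other fits without 1 array. Lig1, the ligase that seals the fragments, read 9.49, 9.62 and 9.57 in the livers labelled knockout, against 9.71, 9.93 and 10.04 in control livers and did not pass (−0.33, SE 0.11, adjusted p = 0.114).

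**Figure D4:**
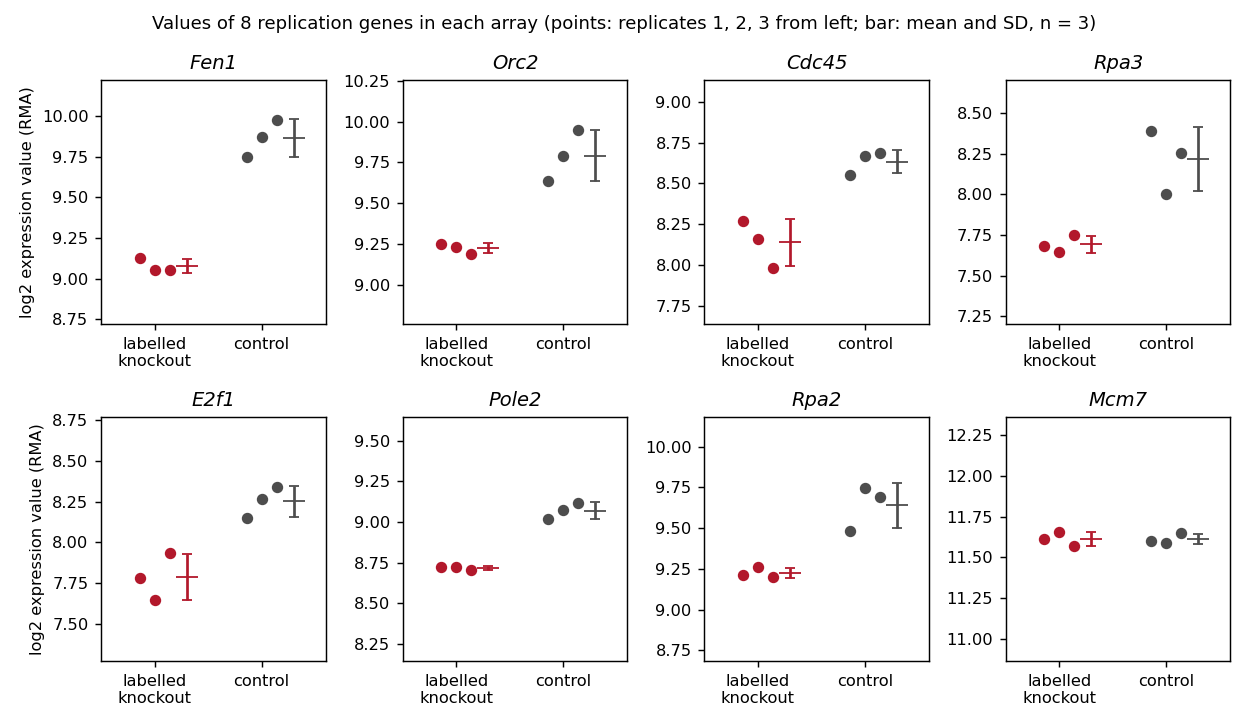
Log2 expression values in each array for the 7 genes that passed and for Mcm7, with livers labelled knockout in red on the left and control livers in grey on the right. Points are replicates 1, 2 and 3 and bars are mean and SD (n = 3), on axes of equal height. The groups are separate in all panels but that of Mcm7, and Fen1 has the widest gap.

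Nucleotide supply and chromatin genes had small differences. By limma 0 of 4 passed in each group, with 1 lower in each at an unadjusted p under 0.05, and the medians were −0.18 and −0.20. Rrm2, the S phase subunit of ribonucleotide reductase, read 10.26, 10.41 and 10.32 in the livers labelled knockout, against 10.47, 10.76 and 10.96 in control livers (−0.40, adjusted p = 0.123). Its partner Rrm1 read 11.36, 11.41 and 11.26 in the livers labelled knockout, against 11.52, 11.43 and 11.58 in control livers (−0.17, adjusted p = 0.347). Thymidylate synthase, Tyms, read 9.83, 9.87 and 9.76 in the livers labelled knockout, against 9.90, 9.79 and 9.88 in control livers (−0.04, 95% confidence interval −0.24 to 0.17, adjusted p = 0.867). So the groups were just apart for both reductase genes and overlapped for Tyms, as they did for the salvage kinase Tk1 (−0.19, adjusted p = 0.403). Of the chromatin genes, Chaf1a, a subunit of the histone chaperone CAF-1, read 8.04, 8.11 and 7.96 in the livers labelled knockout, against 8.30, 8.34 and 8.17 in control livers (−0.23, adjusted p = 0.185). Its partner Chaf1b read 9.83, 9.99 and 9.69 in the livers labelled knockout, against 9.97, 10.07 and 10.22 in control livers (−0.25, adjusted p = 0.244). The maintenance DNA methyltransferase gene Dnmt1 read 10.72, 10.89 and 10.60 in the livers labelled knockout, against 10.74, 10.83 and 10.72 in control livers (−0.03, adjusted p = 0.919). Its recruiter Uhrf1 had −0.16 (adjusted p = 0.370), with separate groups, whereas those of Chaf1b and Dnmt1 overlapped.

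The G1/S regulators had a median of −0.44, and all 4 had an unadjusted p under 0.05. E2f1, an activator of replication genes, fell 1.38-fold. It read 7.78, 7.65 and 7.93 in the livers labelled knockout, against 8.15, 8.26 and 8.34 in control livers (−0.47, SE 0.11, limma adjusted p = 0.0436). Ccne1, the cyclin that drives CDK2 at the start of S phase, read 9.50, 9.45 and 9.67 in the livers labelled knockout, against 9.83, 9.99 and 10.06 in control livers, and was the gene nearest to passing (−0.42, adjusted p = 0.0559). Both pairs of groups were separate. E2f2, an activator abundant in erythroid cells, had the second largest difference of the list and the widest interval, with 7.07, 7.63 and 7.28 in the livers labelled knockout, against 7.47, 8.15 and 8.54 in control livers (−0.73, 95% confidence interval −1.33 to −0.13, adjusted p = 0.145). Control replicate 1 overlapped with the livers labelled knockout there. Cyclin E2, Ccne2, had −0.33 (adjusted p = 0.115).

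Genes of the same pathway outside the list had smaller median differences. This contrast was not tested, and all of the lists were chosen with earlier results of these data known. Of 31 other replisome and origin genes, 3 fell, 0 rose and 28 did not pass, with a median log2 fold change of −0.15. Pole3, a histone-fold subunit of polymerase epsilon, read 9.75, 9.91 and 9.90 in the livers labelled knockout, against 10.38, 10.40 and 10.55 in control livers (−0.59, SE 0.10, limma adjusted p = 0.0190). The others were the large primase subunit gene Prim2 (−0.47, adjusted p = 0.0413) and the nuclease and helicase gene Dna2 (−0.46, adjusted p = 0.0295). The 3 were lower in every liver labelled knockout, than in any control. Of 16 checkpoint and fork protection genes 0 passed limma's test and 6 were lower at an unadjusted p under 0.05, with Clspn, the adaptor of the checkpoint kinase CHK1, having the smallest p (−0.43, adjusted p = 0.0542, list median −0.10). Of 18 other nucleotide supply genes 0 passed limma's test and 5 were lower at an unadjusted p under 0.05, led by the dUTPase gene Dut (−0.37, adjusted p = 0.0718, list median −0.14). Among all genes tested, 2.77% were lower past limma's test and 11.5% were lower at an unadjusted limma p under 0.05.

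Of 14 other histone delivery and DNA methylation genes, 1 fell and 3 rose. Slbp, which binds the stem-loop of replication-dependent histone mRNAs, fell by 0.53 on the log2 scale (SE 0.09, limma adjusted p = 0.0221). In the same list Tet1, an enzyme that oxidises methylcytosine, rose 1.95-fold, with 7.96, 7.92 and 8.07 in the livers labelled knockout, against 7.15, 6.80 and 7.12 in control livers (0.96, SE 0.12, limma adjusted p = 0.0104). Tet2 (0.60, adjusted p = 0.0304) and the de novo methyltransferase gene Dnmt3a (0.45, adjusted p = 0.0312) rose too. The 3 that rose are enzymes that write or oxidise DNA methylation away from the fork, and the list median was −0.09. Of 25 other G1/S regulators 1 fell and 1 rose, shares near the 2.77% and 3.59% of all genes. E2f4, a repressor needed for red cell formation in mice, fell (−0.42, SE 0.10, limma adjusted p = 0.0474) and E2f5, of the same repressor branch, rose (0.46, SE 0.10, limma adjusted p = 0.0402), with a list median of −0.12. Of 7 CDK inhibitor genes, Cdkn1c (p57) rose (0.59, SE 0.10, limma adjusted p = 0.0221) and Cdkn2d (p19) fell (−0.65, SE 0.16, limma adjusted p = 0.0481), with a list median of −0.11. At an unadjusted limma p under 0.05, 3 of the 7 were higher and 1 lower, where 11.1% of all genes were higher and 11.5% lower.

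Mitosis genes had a smaller median difference than replication genes in the same livers. Of 27, 1 fell, 0 rose and 26 did not pass, a share near the 2.77% of all genes that were lower. A negative log2 fold change was seen for 24, against 51.7% of all genes, and the median was −0.10. The gene that fell was Incenp, the scaffold of the chromosomal passenger complex, with 8.61, 8.84 and 8.61 in the livers labelled knockout, against 9.22, 9.14 and 9.19 in control livers (−0.50, SE 0.10, limma adjusted p = 0.0307). Named after their values were seen, the mitotic kinase Cdk1 (0.01, adjusted p = 0.976), Top2a (0.05, adjusted p = 0.836) and the proliferation marker Mki67 (−0.25, adjusted p = 0.257) had overlapping groups. Cdk1 and Top2a were among the only 3 mitosis genes with a positive log2 fold change. All 3 livers labelled knockout read below all 3 control livers for 7 of the 27, as for 14.3% of all genes, and above for 0. At an unadjusted limma p under 0.05, 5 were lower and 0 higher, where 11.5% of all genes were lower. Per array the mitosis median was −0.16, −0.03 and −0.14 in the livers labelled knockout, against −0.06, 0.02 and 0.04 in control livers. The difference between the mitosis and replication lists was not tested.

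The list medians of blood cell markers lay in the direction of the replication genes and were larger. Of 18 erythroid genes, 9 fell and 0 rose, with a median of −0.80, and per array the list read −0.70, −0.77 and −0.90 in the livers labelled knockout, against −0.22, −0.03 and 0.24 in control livers. The order of the erythroid controls was that seen for the replication and mitosis genes, with replicate 1 lowest and replicate 3 highest. Other blood cell lists ran otherwise. In the macrophage, granulocyte and myeloid, megakaryocyte, and stem and progenitor lists, replicate 2 was the lowest control. The macrophage controls read 0.15, −0.11 and 0.02, and the granulocyte and myeloid controls 0.22, −0.21 and −0.06. Examples, chosen after their values were seen, are the erythroid regulators Tal1 (−0.98, limma adjusted p = 0.0074), Nfe2 (−0.89, adjusted p = 0.0106) and Klf1 (−0.80, adjusted p = 0.0256) and the erythropoietin receptor gene Epor (−0.83, adjusted p = 0.0107). Of 15 macrophage genes, 11 fell (median −1.12), of 13 granulocyte and myeloid genes, 10 fell (median −1.20), of 10 megakaryocyte genes, 4 fell (median −0.82), and of 12 stem and progenitor genes, 3 fell (median −0.44). Positive log2 fold changes were seen for 3 of the stem and progenitor genes (up to 0.85) and 1 macrophage gene (0.33), and 0 of these passed. Sinusoidal endothelial genes fell in 6 of 12 cases (median −0.44). In the other direction, 2 of 19 hepatoblast genes (median 0.36), 5 of 13 shared endothelial genes (median 0.40) and 6 of 14 mesenchymal and stellate genes (median 0.54) rose. Among all genes tested, 2.77% were lower and 3.59% higher. The hepatoblast list read 0.51, 0.05 and 0.46 in the livers labelled knockout, against 0.04, −0.01 and −0.02 in control livers. Labelled knockout replicate 2 thus lay close to control replicate 1 in that list. Of 10 heart muscle genes 0 passed limma's test and 1 was lower at an unadjusted p under 0.05, a share near the 11.5% of all genes (median −0.37). Their per-array medians were −0.85, −0.74 and 0.17 in the livers labelled knockout, against −0.16, 1.32 and −0.88 in control livers. Control replicate 2 thus stood highest in heart muscle genes, and it is the only control behind the values with the sex term, where the heart muscle median was −1.57. The part that these shifts in cell type markers have in the difference of the replication genes was not tested.

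**Figure D5:**
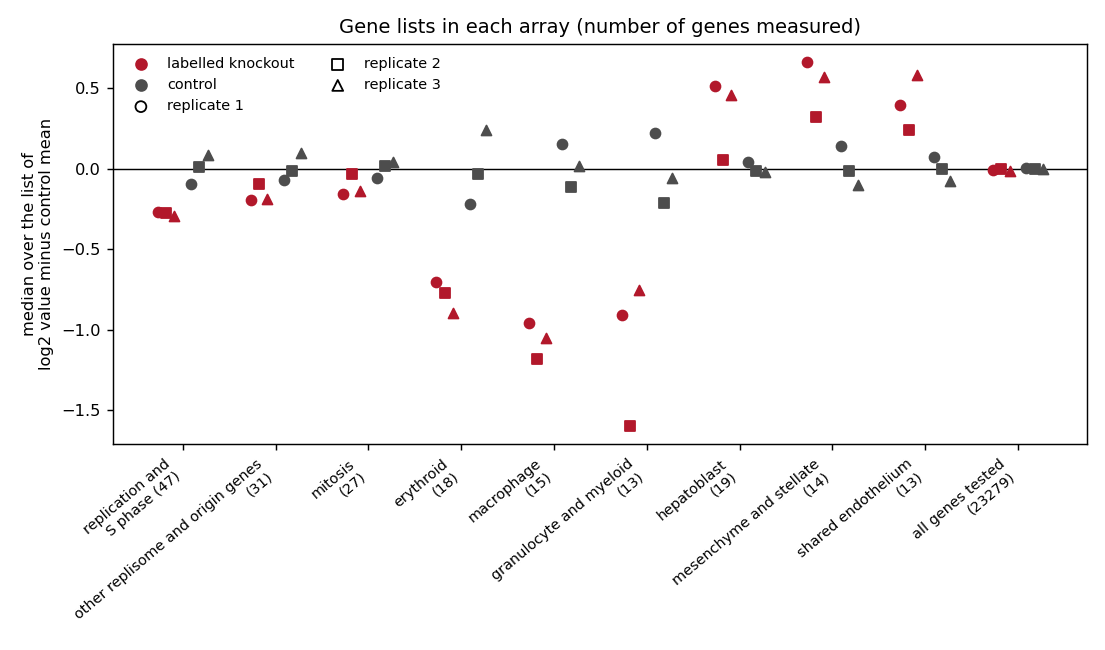
Per-array level of each gene list, as the median over its genes of the difference in log2 value from the control mean, 1 point per array, with livers labelled knockout in red left of control livers in grey, and the number of genes in parentheses. The replication genes lie at −0.29 to −0.27 in the livers labelled knockout, and −0.10 to 0.08 in control livers. The erythroid and myeloid lists lie lower and the hepatoblast, mesenchymal and shared endothelial lists higher than their controls. In the hepatoblast list labelled knockout replicate 2 (0.05) lies close to control replicate 1 (0.04).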

How the data were processed

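The deposited values are log2 expression values that the authors made with RMA, per the submitters' processing notes. RMA corrects background, quantile-normalises and summarises probes. Its version, settings and chip definition are unstated. Sorted values are identical in all 6 arrays, so a global shift would be invisible. No detection value was used, and for arrays their number limits the precision.

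Features were named by Entrez ID through the platform annotation and a RefSeq gene table of GRCm38.p6: 23281 of 24479 had a name, 1198 had none, and 2 genes had a pair of features, of which the brighter was kept. The test was limma (lmFit, eBayes, no covariate, no filter; version 3.58.1, R 4.3.3) on all 23279 genes, as labelled knockout minus control, with Benjamini-Hochberg adjustment over all genes and a threshold of 0.05. The fit has 4 residual and 4.06 prior degrees of freedom. It was tested on simulated data. An exact permutation test of 3 arrays against 3 cannot go below 0.1.

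The 47 genes, 7 pathway lists (138 of 143 genes measured) and 10 cell type lists (136 of 141) were chosen with earlier results of these data known. Lists are described by counts and medians, with no set test. All values per array are given for genes that passed, for at least 2 genes of smallest p in each role group and for the 3 largest and smallest log2 fold changes. Of each pathway list up to 4 genes that passed, or else the 1 of smallest p, are named. Alternatives were a sex term, a replicate block, array weights, robust eBayes, a variance trend, median centring, a new quantile normalisation, dropping the dimmest 25% or 50%, dropping X and Y genes, averaging features, other thresholds, and each array left out in turn. The comparison with control replicate 2 alone was chosen after seeing the data.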

Additional observations from a re-analysis of the deposited data

How the results depend on the processing

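The median of the 47 replication genes kept its direction in every alternative tried, between −0.31 and −0.21 without 1 array, −0.27 with a sex term and −0.27 against control replicate 2 alone. A variance trend, robust eBayes, the replicate block and the dropping of dim genes leave the log2 fold changes of the list as they are. Those alternatives therefore could not test its direction. Sorted values were already identical in all 6 arrays, so median centring and a new quantile normalisation could change little. Averaging features could alter only the 2 genes with a pair of features, and dropping X and Y genes only removed genes. These settings too were hardly a test of the direction. The count of lower genes in the list moved more than 1.5 times from its 7: it was 12 with a variance trend, 11 with the dimmest 50% left out, 13 at an adjusted p of 0.1, 1 with a fold change of at least 1.5 and 0 with a sex term. Without 1 array it was 0 to 4. With the replicate number as a block it was 1 (Fen1), and over all genes 405 were higher and 281 lower with that block. Same-numbered arrays did not deviate together (r over genes between −0.08 and −0.01), so the numbers were not taken as pairs. Over all genes, 836 were higher and 644 lower, and these counts were 3 and 0 with a sex term, 1430 and 1270 at an adjusted p of 0.1, 532 and 394 with a fold change of at least 1.5, and 25 to 785 and 16 to 610 without 1 array. The count of 0 higher genes in the list held in all of these. Role group and pathway medians moved in a few cases by more than 1 SD of the list's array medians within groups. With a sex term, and, as it must be, equally against control replicate 2 alone, they were −0.19 for CDC45 and GINS, −0.31 for RPA, −0.15 for other histone delivery and methylation genes and 0.079 for CDK inhibitors, which were also at 0.10 with the dimmest 50% left out. Without 1 array, MCM genes lay between −0.31 and −0.19, CDC45 and GINS between −0.34 and −0.20, RPA between −0.44 and −0.36, other histone delivery and methylation genes between −0.13 and −0.037, and other G1/S regulators between −0.15 and −0.036. Dnmt1 lay between −0.11 and 0.039 without 1 array, above 0 without labelled knockout replicate 3 or control replicate 2, and Tyms was at 0.031 with a sex term, and none of these values passed. The causes of these moves were not tested, and each fit without 1 array also rests on fewer arrays. Dim features could not be told from background here.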
